A study of Rattus norvegicus with 6 samples.

Results

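Tnn and Col12a1 each hosted 5 circular RNAs (circRNAs, closed RNA loops made when a downstream splice donor is joined back to an upstream acceptor) in the deposited table of 4143 circRNAs from rat dental follicle cells. The 10 were the rows whose host gene entry named Tnn or Col12a1, and each entry named that gene alone. Both genes were singled out because their circRNAs were more abundant in the induction column, so the differences between the columns below describe how the genes were chosen and are given without a test.

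The cells were primary dental follicle cells from the tooth germs of mandibular molars of Sprague-Dawley rats aged 5 to 7 days, used at passage 3 to 4. Control cells were kept for 28 days in alpha-modified Eagle medium with 5% fetal bovine serum. Induction cells were kept as long in the same medium and serum with 1% of an osteogenic liquid. That liquid held the glucocorticoid dexamethasone at 0.010 mmol/L, ascorbic acid (vitamin C) at 0.028 mmol/L and, as a phosphate source, β-glycerophosphate at 1.000 mol/L. The labels name 3 samples per group, and give the number of rats as 3 in one place and 4 in another. The table held 1 count column per group, so no value has a replicate error. Every interval is an exact 95% interval (Clopper-Pearson) for counting error alone, and leaves out any variation from rat to rat and any duplicate reads.

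Tenascin N, also called tenascin-W, is a glycoprotein of the extracellular matrix with a chain of fibronectin type III repeats and a fibrinogen-like end, found around developing bone, periosteum and teeth. Type XII collagen is a fibril-associated collagen. It lies along type I collagen fibrils of tendon, periosteum and periodontal ligament, and its large amino-terminal part is made of fibronectin type III repeats and von Willebrand factor A domains. The dental follicle gives rise to the periodontal ligament, cementum and alveolar bone.

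The listed counts came to 137740 in control and 164746 in induction, with a median of 9 per circRNA in each column. The totals behind the deposited TPM values were larger, 203283 and 221596. The listed counts thus fall short of those totals in both columns, and what made up the rest is not known. Of 6 genes taken as background for these cells, circRNAs of Col1a1, Col3a1, Runx2, Tnn and Col12a1 were listed and none of Postn was. Tnn and Col12a1 were chosen from the listed circRNAs, so their listing was fixed in advance and nothing is read from it. Of 13 markers of other cells, 3 had circRNAs. The leukocyte marker Dock8 summed to 29 and 19 counts (1 circRNA was lower, at 22 and 4, and another had 7 and 15), the endothelial marker Flt1 had 48 and 50, the muscle marker Dmd summed to 10 and 15, and none of the 4 epithelial markers was listed. Their part in the results was not tested. A host with no listed circRNA may still be transcribed, and a circRNA seen in 1 column only was not analysed here, since every listed count was at least 1. In bulk RNA, fewer cells of a type and less RNA per cell cannot be told apart, and with linear RNA removed, more host transcript and more circularisation cannot be told apart either.

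All coordinates of circRNAs are those of the authors on Rnor_6.0, and the circRNAs of each gene are numbered here by start. The 5 Tnn circRNAs lay on chromosome 13 within 21143 nt. Tnn circRNA 1 ran from 77861167 to 77861430, circRNA 3 from 77863217 to 77863480 and circRNA 4 from 77869300 to 77869563. These 3 had the same span of 264 nt, which would be 88 codons if each were a single coding exon. That is close to the length of a single fibronectin type III repeat, but the spans were not checked against the protein sequence. Tnn circRNA 2 ran from 77861167 to 77863480, a span of 2314 nt. It began exactly where circRNA 1 began and ended exactly where circRNA 3 ended, so it enclosed both short circRNAs and the 1786 nt between them. Tnn circRNA 5 lay apart, from 77880925 to 77882309, with a span of 1385 nt. Among the 4133 circRNAs of other hosts, 1 had a span of 264 nt (Myo1f, 4 and 11 counts). No annotation of Rnor_6.0 was used, so exons, introns and strand were not assigned on that build, and a span counts any intron inside it. A start is the lower genomic coordinate and an end the higher, whichever strand is transcribed. In the later assembly GRCr8, RefSeq places Tnn on the minus strand.

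The 5 Col12a1 circRNAs lay on chromosome 8 over 71660 nt and did not overlap. Col12a1 circRNA 1 ran from 87044118 to 87044186 (69 nt), circRNA 2 from 87079964 to 87088139 (8176 nt), and circRNA 3 from 87100666 to 87102375 (1710 nt). CircRNA 4 ran from 87110347 to 87114679 (4333 nt), and circRNA 5 from 87115394 to 87115777 (384 nt). The last pair lay 714 nt apart, and the first lay 35777 nt from its nearest neighbour. None of the 5 shared a start or an end with another circRNA, in contrast to 3 of the 5 of Tnn. Among all listed circRNAs 1839, or 44.4%, shared a start or an end. No circRNA of another host lay inside either stretch. The nearest ones lay 440197 nt from the Tnn circRNAs and 387949 nt from those of Col12a1.

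**Figure D1:**
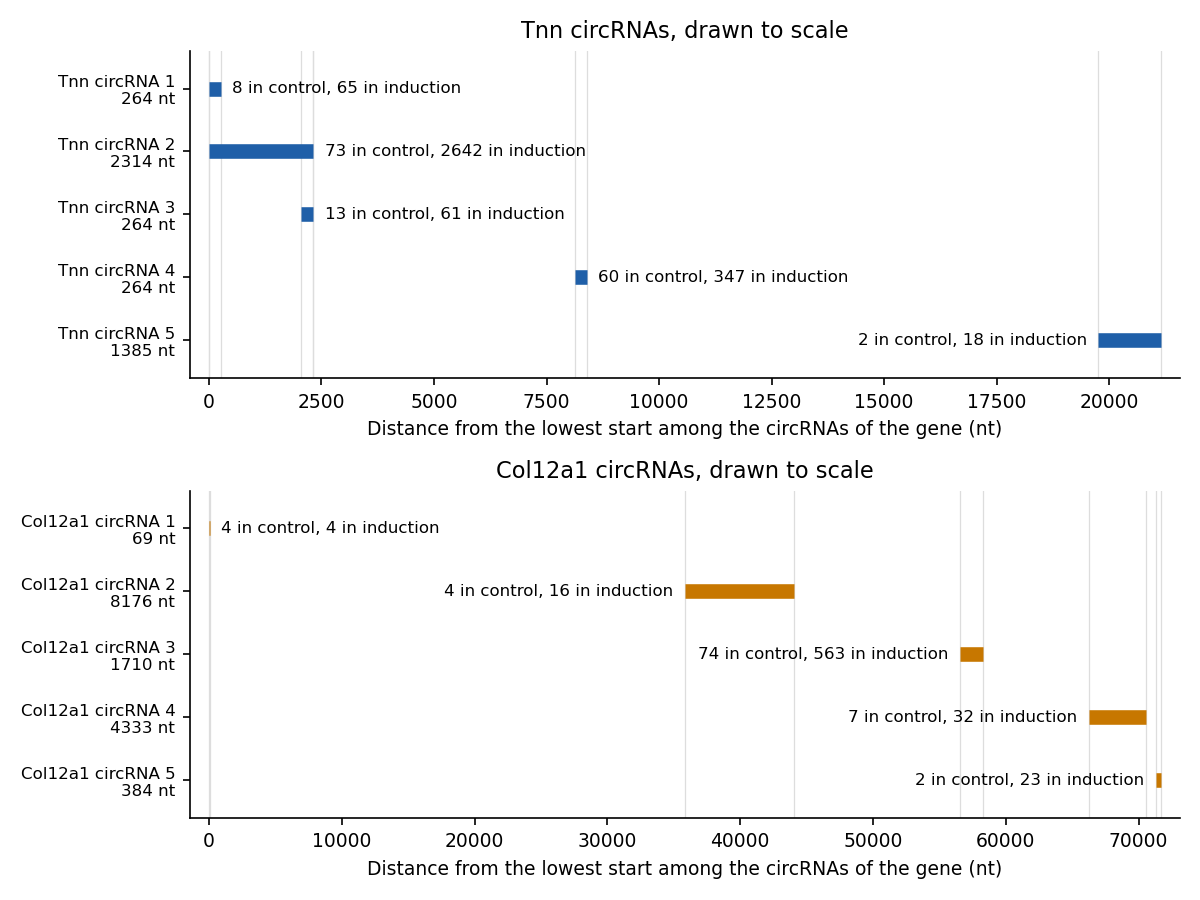
The bars show the genomic span of each circRNA of Tnn (upper panel) and Col12a1 (lower panel) against the distance in nt from the lowest start in the gene, with the deposited counts of both columns printed beside each bar and thin vertical lines at every start and end. Tnn circRNA 2 starts with circRNA 1 and ends with circRNA 3, while the Col12a1 circRNAs share no end.

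All of the 5 members of at most 500 nt had spans divisible by 3, the 3 short ones of Tnn and the 69-nt and 384-nt ones of Col12a1. Over the table, 45.8% of the 448 circRNAs of at most 500 nt had such spans. The 3 of Tnn have the same span and are not separate observations. At any length, 3 of the 5 Tnn circRNAs and 3 of the 5 of Col12a1 had such spans, beside 35.1% of all 4143. The nested arrangement of Tnn was looked for elsewhere in the table. A circRNA that starts with a shorter listed one and ends with another, the shorter pair not overlapping, was found 153 times, and 51 of these had more counts than both shorter ones. In 4 the shorter pair had equal spans. Besides that of Tnn these were 2 circRNAs of Col1a1 and 1 of Col3a1, genes of the main fibrillar collagens. Their counts were 1 and 213, 6 and 2, and 6 and 6. Col1a1 and Col3a1 had 58 and 73 listed circRNAs, and collagen hosts gave 32 of the 153 nested arrangements. Why spans were equal was not tested. The sources used here do not say how reads matching more than 1 place in a gene were assigned, and the split of counts between circRNAs 1, 2 and 3 of Tnn is uncertain.

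Of the reference sequences used here, the start of Tnn was covered and that of Col12a1 was not. The Tnn start is shown because all 5 of its circRNAs were higher in induction. The 300 bases run from 250 before to 50 after the RefSeq start, at chr13:74919740-74920039 on the minus strand of GRCr8, a later assembly than that of the counts. They are written 5′ to 3′, with motif matches in capitals.

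Tnn promoter: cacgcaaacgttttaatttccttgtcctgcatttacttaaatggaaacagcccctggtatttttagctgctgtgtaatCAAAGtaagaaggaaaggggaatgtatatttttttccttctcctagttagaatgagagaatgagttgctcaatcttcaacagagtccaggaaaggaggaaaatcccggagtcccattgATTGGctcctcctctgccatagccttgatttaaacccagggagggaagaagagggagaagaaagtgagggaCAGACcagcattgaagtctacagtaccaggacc

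The capitals mark, in order, a TCF/LEF core (CTTTG, on the other strand) at bases 79 to 83, a CCAAT box (on the other strand) at bases 197 to 201, and a SMAD box (CAGAC) at bases 268 to 272. On both strands of the 33469 RefSeq windows of this length, these letters occurred in 53.8%, 37.5% and 50.1%, so each match is a common one. The letters of a RUNX site (TGTGGT, in 17.3% of windows), an AP-1 site (TGANTCA, 7.33%), a glucocorticoid receptor half-site (AGAACA, 20.7%), a TATA box (TATAAA, 14.2%) and an E-box (CANNTG, 72.1%) were not in the Tnn window. No match overlapped another. These are matches of letters only.

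CircRNAs of tenascin N were more abundant in the induction column at all 5 junctions, and those of type XII collagen at 4 of 5. A circRNA is called higher or lower where its ratio of induction to control, on the totals behind the deposited TPM values (203283 and 221596), was at least 2 either way and its interval left out equal levels. By this rule 9 of the 10 were higher and none was lower. Of all 4143 circRNAs, 9.22% were higher and 9.29% were lower, 18.5% in all. Nothing is read from the members' count beside these shares, because the genes were chosen on this contrast. At 4-fold, 8 of the 10 were higher, beside 4.1% of all circRNAs (8.93% in either direction), and by fold alone 9 were, beside 17.9% (37.4% in either direction). In the authors' deposited table, an FDR under 0.05 together with a level at least 2-fold higher was given to 8 of the 10 and to 7.19% of all circRNAs. The circRNA that lost its call by each of these stricter rules was Col12a1 circRNA 2, whose FDR in the authors' deposited table was 0.0659.

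Tnn circRNA 2 was the most abundant of the 10 in induction, with 73 counts in control and 2642 in induction. On the deposited TPM scale, counts per 1000000 without correction for length, these were 359 and 11923. It ranked 311 by count among the 4143 circRNAs in control and 5 in induction, and its ratio was 33.2 (26.3 to 42.5), rank 13 of all. Tnn circRNA 4, the 264-nt junction that shares no end, had 60 and 347 counts, a ratio of 5.31 (4.02 to 7.10). In control these 2 were close to each other, while in induction circRNA 2 was far above.

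The 2 short circRNAs inside circRNA 2, and circRNA 5, had far lower counts in both columns. Tnn circRNA 1 had 8 and 65 counts, a ratio of 7.45 (3.57 to 18.0). Tnn circRNA 3 had 13 and 61, a ratio of 4.30 (2.34 to 8.54). Tnn circRNA 5 had 2 and 18, a ratio of 8.26 (1.98 to 73.4), which rests on 2 counts in control. All 5 were thus higher in induction, and the intervals of circRNAs 1, 3, 4 and 5 overlapped one another. The intervals of circRNAs 1, 3 and 4 lay wholly below that of circRNA 2, and the wide interval of circRNA 5 enclosed it.

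**Figure D2:**
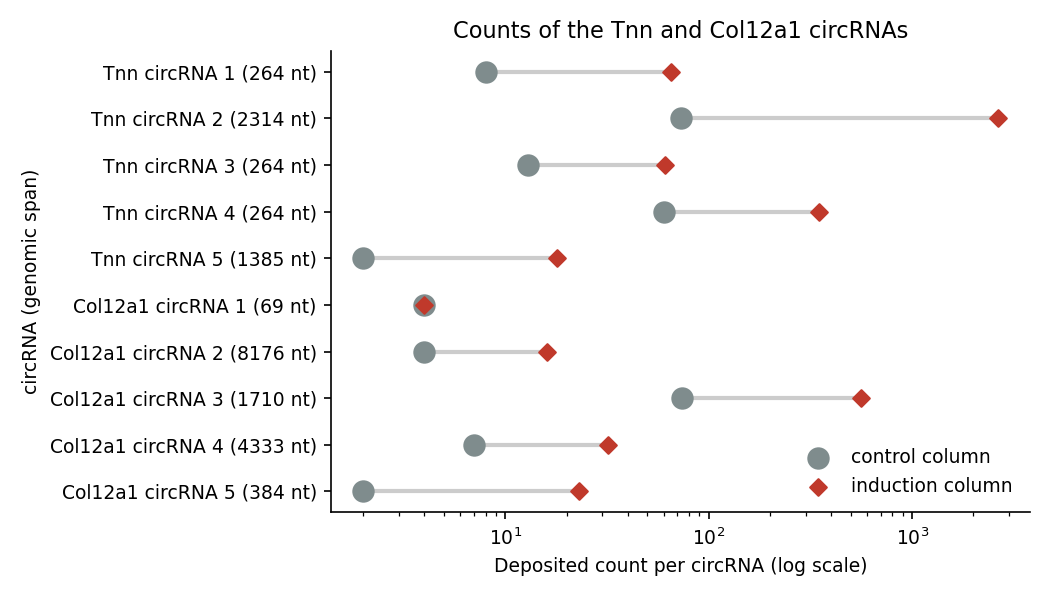
The horizontal axis gives the deposited count of each circRNA on a log scale, circles for the control column and diamonds for the induction column, with 1 row per circRNA and its span in nt. Induction lies to the right in 9 of 10 rows, and Col12a1 circRNA 1 has 4 counts in both columns.

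Type XII collagen also had a single dominant circRNA. Col12a1 circRNA 3, the 1710-nt one, had 74 and 563 counts, or 364 and 2541 TPM, and a ratio of 6.98 (5.47 to 9.02). By count it ranked 305 in control and 39 in induction. In control it thus had about the count of Tnn circRNA 2, which stood at 73.

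The other Col12a1 circRNAs were scarce. CircRNA 4 had 7 and 32 counts, a ratio of 4.19 (1.82 to 11.3), and circRNA 2 had 4 and 16, a ratio of 3.67 (1.18 to 15.1). The ratio of circRNA 5 was the highest of the gene, 10.5 (2.61 to 92.3), but it rests on 2 counts in control and 23 in induction, and its interval encloses that of circRNA 3. CircRNA 1, of 69 nt, had 4 counts in each column and a ratio of 0.917 (0.171 to 4.93), an interval that reaches from 5.85-fold lower to 4.93-fold higher, so a difference within that range was not detectable at this depth. It was the only member not called, and its interval overlapped that of every other Col12a1 circRNA except circRNA 3.

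Summed over the gene, Tnn had 156 counts in control and 3133 in induction, and Col12a1 had 91 and 638. Tnn thus went from 0.113% (0.0962 to 0.132) to 1.90% (1.84 to 1.97) of all listed counts, and Col12a1 from 0.0661% (0.0532 to 0.0811) to 0.387% (0.358 to 0.418). Among the 377 host genes with at least 100 counts in both columns together, Tnn had the highest summed ratio, 18.4 (15.7 to 21.8), and Col12a1 the second, 6.43 (5.16 to 8.10). Nothing is read from these ranks, because the genes were chosen on this contrast. The ratio of Tnn depended on circRNA 2. Without it the gene summed to 83 and 491 counts, a ratio of 5.43 (4.29 to 6.93). Without circRNA 3, Col12a1 summed to 17 and 75, a ratio of 4.05 (2.37 to 7.31). Without their dominant circRNAs the intervals of both genes overlapped, whereas those of the full sums did not. The circRNA left out was the one with the most counts in both columns together, most of them from induction. The overlap is therefore not read as a likeness of the 2 genes.

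**Figure D3:**
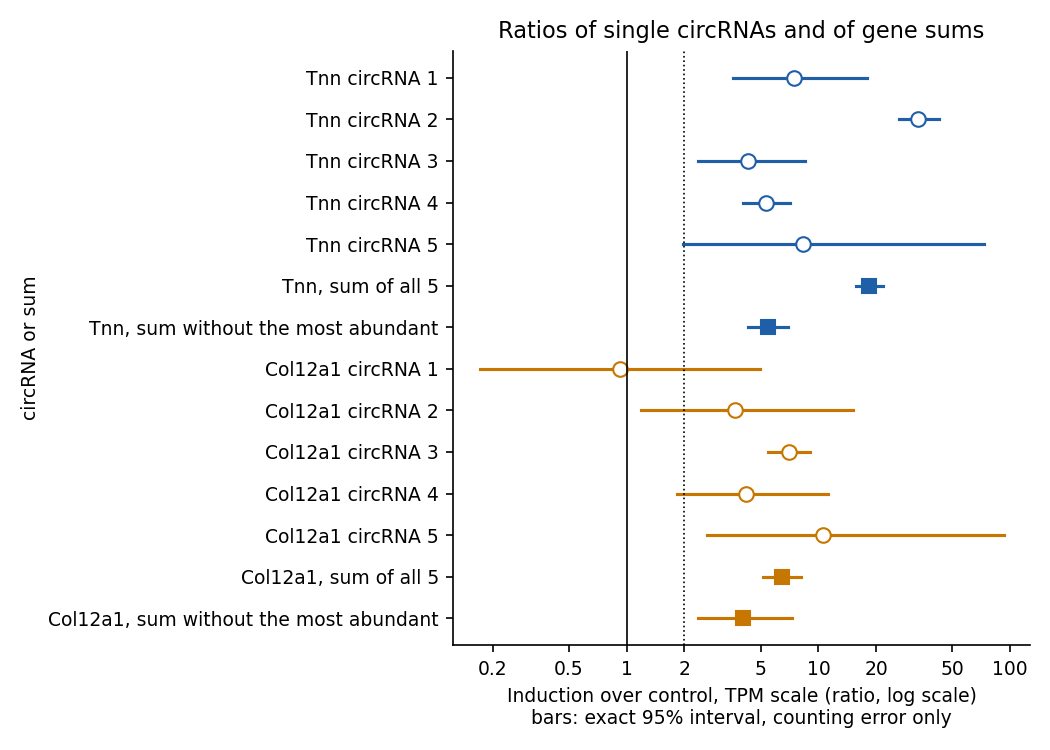
The ratio of induction to control (log scale) is given for each circRNA (open circles) and for gene sums (squares), with bars for the exact 95% counting interval, a solid line at equal levels and a dotted line at 2-fold. Tnn circRNA 2, at 33.2, stands above the other Tnn circRNAs, and leaving it out takes the Tnn sum from 18.4 to 5.43.

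The makeup of the Tnn signal differed between the columns. CircRNA 2 took 46.8% (38.8 to 54.9) of the Tnn counts in control and 84.3% (83.0 to 85.6) in induction, and the share of circRNA 4 was 38.5% in control and 11.1% in induction. For Col12a1, circRNA 3 took 81.3% (71.8 to 88.7) in control and 88.2% (85.5 to 90.6) in induction, and these intervals overlapped. Tnn circRNA 2 had 5.62 times the counts of circRNA 3, with which it shares an end, in control, and 43.3 times in induction. Against circRNA 1, with which it shares a start, it had 9.12 times the counts in control and 40.6 times in induction. By the deposited counts, junctions with a common end thus differed unequally between the columns. CircRNAs 1 and 3 had only 8 and 13 counts in control. The split of counts between circRNAs 1, 2 and 3 is uncertain, since the placement of any reads matching more than 1 place in the gene is not known.

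Ratios could also be compared at common ends over all listed circRNAs. Over 605 pairs of circRNAs with a common start or end and at least 20 counts in each, the median absolute difference of the log2 ratios was 0.87 (25th to 75th percentile 0.37 to 1.77). The Tnn pairs differed by 2.16 at the common start and by 2.95 at the common end. Nothing is read from these values beside the median, since the short Tnn circRNAs reached 20 counts only through the induction column. Both circRNAs were higher in 36 of the pairs, and 41 pairs held 1 higher and 1 lower circRNA.

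**Figure D4:**
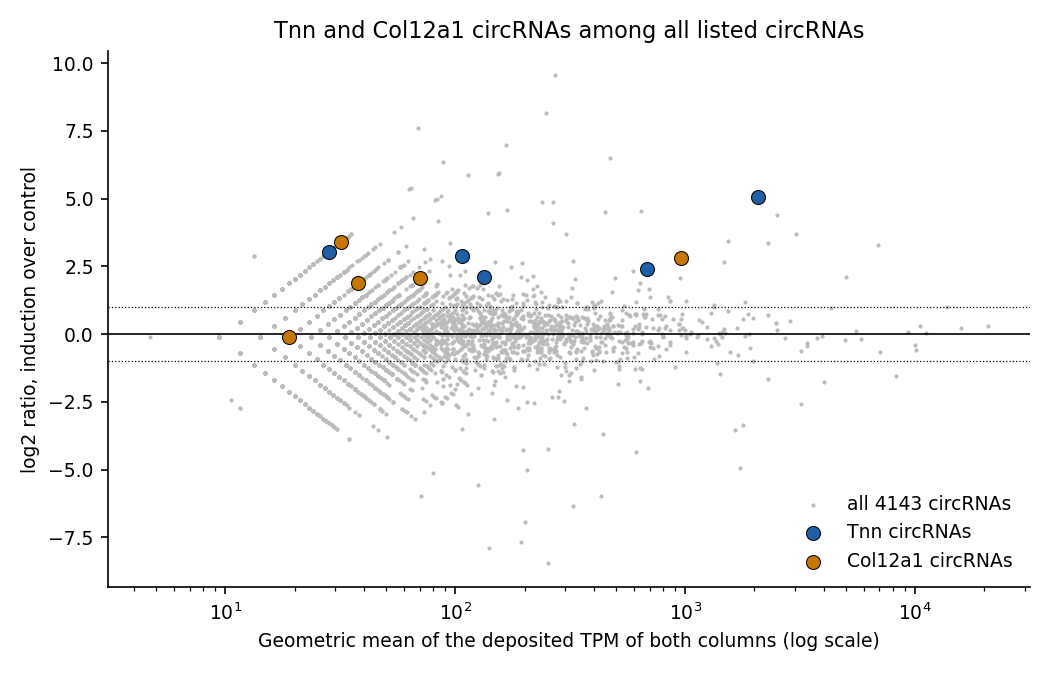
Each grey point is 1 of the 4143 circRNAs, with the geometric mean of its deposited TPM on the horizontal log axis and the log2 ratio of induction to control on the vertical axis, and dotted lines at 2-fold. The 5 Tnn circRNAs (blue) and 4 of the 5 Col12a1 circRNAs (orange) lie above the upper dotted line.

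No other tenascin was listed. Of Tnc, Tnr, Tnxb and Tnxa-ps1 no circRNA was in the table. Of 10 fibril-associated collagen genes 3 were listed, with 11 circRNAs, of which the 4 of Col12a1 were higher, none was lower and 7 were neither. The share higher was 36.4%, beside 9.22% of all circRNAs, and nothing is read from it, since it consists of members chosen on this contrast. The 6 circRNAs of the other listed genes, Col14a1 and Col16a1, were all among the uncalled, with a median log2 ratio of 0.59 against −0.05 over all 4143. Of all circRNAs 18.5% were called, so the lack of a call among only 6 is not read as a difference from Col12a1. Col16a1, another fibril-associated collagen, summed to 84 and 129 counts over 5 circRNAs, a ratio of 1.41 (1.06 to 1.88), and none of the 5 was called. Col14a1, the close relative of type XII collagen, had 1 circRNA with 5 counts in each column.

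Among 19 other genes with fibronectin type III repeats 7 were listed, with 18 circRNAs in all. Of these, 4 were lower, 1 was higher and 13 passed in neither direction, and the median log2 ratio was 0.14. The share higher was 5.56% beside 9.22% of all circRNAs, and the share lower was 22.2% beside 9.29%. Nothing is read from these shares, since they rest on only 18 circRNAs and 2 of the 4 lower ones share a start. The higher one belonged to Robo1, a receptor for Slit guidance proteins, with 21 and 91 counts, a ratio of 3.98 (2.45 to 6.73). Fn1, which encodes fibronectin itself, had 2 circRNAs that summed to 14 and 20 counts, and neither was called. Abi3bp, a matrix protein gene, was lower, with 108 and 20 counts, 5.89-fold (3.63 to 10.0). Of the 8 circRNAs of Fndc3b, whose sums were 247 and 217, 2 were lower. The receptor phosphatase gene Ptprd (sums of 95 and 63) had 3, and 1 of them was lower. Ptprf, a related phosphatase, had a summed ratio of 2.45 (1.10 to 5.98) on 9 and 24 counts, with neither of its 2 circRNAs called. Sdk1 had 1 circRNA, in a row with several names, with 4 and 5 counts and no call.

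Genes of the fibrils and of the periodontal matrix gave 164 circRNAs from 9 of 18 genes, 36 higher, 34 lower and 94 neither, with a median log2 ratio of −0.0039. The shares were 22.0% higher and 20.7% lower, beside 9.22% and 9.29% of all circRNAs, and 131 of the 164 belonged to Col1a1 and Col3a1. The 164 held 41341 counts in control and 50723 in induction. Junctions with more counts have narrower intervals and pass the call rule more easily, so the shares are not read as a difference. Type I collagen, the fibril with which type XII collagen associates, summed to a ratio of 1.14 (1.11 to 1.16) for Col1a1 and 1.10 (0.987 to 1.22) for Col1a2. Single junctions differed far more than these sums, with 18 higher and 16 lower of 58 for Col1a1 and 3 higher of 8 for Col1a2. One of the latter, from 31547416 to 31547877 on chromosome 4, had 2 and 89 counts, a ratio of 40.8 (11.0 to 342), whose interval encloses that of Tnn circRNA 2. The matrix proteins Fbln2 (26 and 5 counts) and Aspn (18 and 6, in a row that also names Ogn) each had 1 circRNA, which was lower. Thbs1, which encodes thrombospondin-1, summed to 20 and 7 counts, 3.11-fold lower (1.27 to 8.72), with neither of its 2 circRNAs called. Sparc summed to 56 and 47 counts over 5 circRNAs, a ratio of 0.770 (0.511 to 1.16), and none of the 5 was called. The 1 circRNA of Bgn, with 12 and 7 counts, was not called either. Col3a1 had a summed ratio of 1.15 and Col5a1 of 0.681. Of 15 integrin chains, which as pairs are receptors for matrix proteins, 3 were listed with 8 circRNAs, 1 of them higher and 7 neither (median 0.43). That 1 is 12.5% of the 8, near the 9.22% of all circRNAs. The higher one was an Itgb5 circRNA with 2 and 11 counts. Itgb5 summed to 93 and 172, while Itgb1 had 4 in each column and Itgav 3 and 2.

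**Figure D5:**
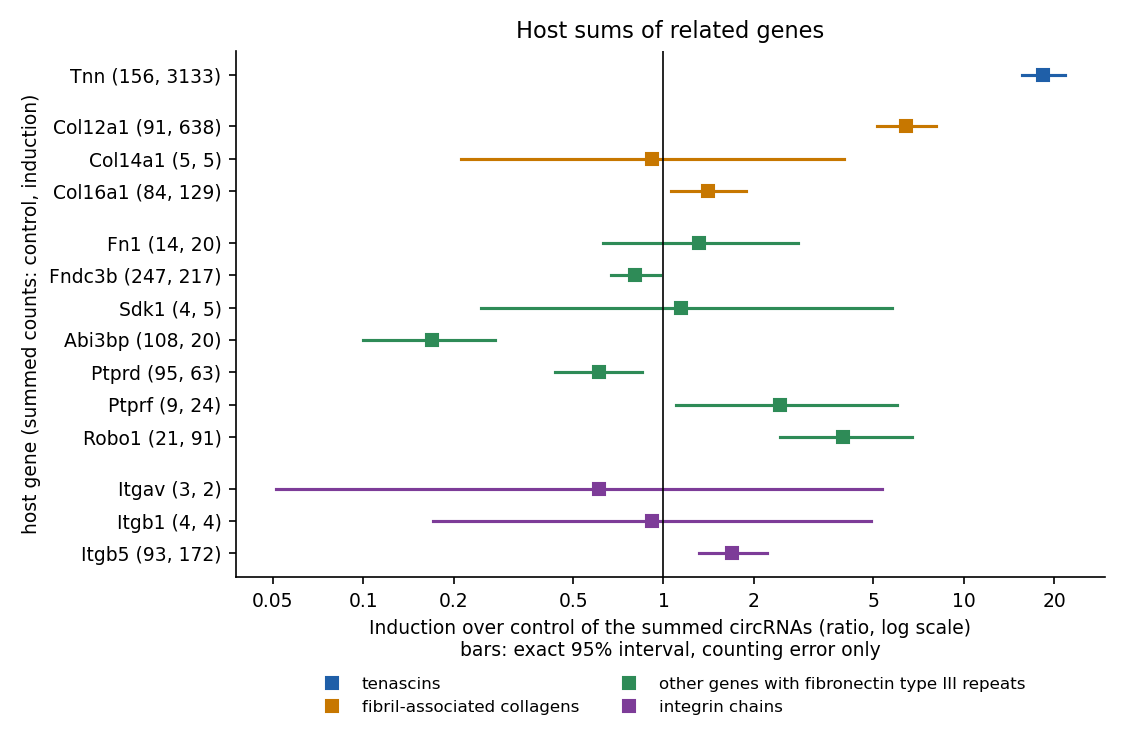
Squares give the ratio of induction to control (log scale) of the counts summed over each listed host gene, with bars for the exact 95% counting interval and the summed counts of control and induction after each name. Tnn (18.4) and Col12a1 (6.43) lie to the right of the other fibril-associated collagen, fibronectin repeat and integrin hosts drawn, of which Robo1 (3.98) comes next.

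The hosts with the most similar summed ratio were found among the 377 with at least 100 counts in both columns together, over the 2 columns only. Col12a1, Ciz1 and Robo1 had fewer than 100 counts in control and reached this limit only with the induction counts added, so their likeness is a description. For Tnn the nearest hosts were Col12a1, Ciz1 and Robo1, at distances of −1.52, −2.04 and −2.21 on the log2 scale. Tnn was chosen on this contrast and had the highest ratio of the 377, so nothing is read from these distances. For Col12a1 the nearest were Ciz1 (−0.52), Robo1 (−0.69) and Col6a1 (−0.84). Ciz1, a nuclear protein of DNA replication, summed to 19 and 93 counts, a ratio of 4.49 (2.72 to 7.79). Its interval overlapped that of Col12a1, as did that of Robo1. Col6a1, a type VI collagen chain, summed to 693 and 2713, a ratio of 3.59 (3.30 to 3.91), wholly below the interval of Col12a1. The Robo1 circRNA, on chromosome 11 from 10020678 to 10022991, had the same span of 2314 nt as Tnn circRNA 2.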

How the data were processed

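Per the labels, Illumina libraries were made from RNA depleted of DNA and linear RNA. Per the submitters' processing notes, FastQC and BWA were used with the build Rnor_6.0. The sources used here name no circRNA caller or filter and do not say how 3 libraries became 1 column per group. A count may therefore be a sum, a mean or another whole number. The deposited counts were whole numbers per circRNA. The deposited TPM values equalled the count over a total per column, within 0.0063%, without correction for length. The deposited log2 ratio and the deposited p-value and FDR are the authors' own. Of these, only the FDR was used here, in an alternative. The columns have no replicates, so ratios and intervals were computed in place of tests (Python 3.11.15, scipy 1.17.1). TMM (edgeR 4.0.16) and DESeq2 1.42.0 gave other scalings only. Sums for the host ranking and the nearest hosts used the only name that stayed within 1 chromosome and 5 Mb. Sums for the lists of related genes took every row that named the gene. Those of Col1a1, Col3a1, Col16a1, Sdk1, Aspn and Itgb5 thus include rows with several names. Related genes came from lists of tenascins, fibril-associated collagens, fibronectin repeat genes, matrix partners, integrins and cell markers. The text names every circRNA of Tnn and Col12a1, every gene of these lists that had a listed circRNA, and the 3 hosts nearest in ratio. The members and lists were chosen with earlier results of these data known. RefSeq supplied the GRCr8 promoter.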

Additional observations from a re-analysis of the deposited data

How the results depend on the processing

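No paired analysis was possible because the columns carry no sample numbers, only 1 pooled value per group, and for the same reason leaving out single libraries, the DESeq2 test and a replicate block were not run. The summed log2 ratio of Tnn was 4.20 and lay between 4.07 and 4.26 under 4 other scalings (listed totals, TMM, DESeq2 size factors, listed totals without collagens). That of Col12a1 was 2.69 and lay between 2.55 and 2.74. Listed totals shifted every log2 ratio by −0.13. Without the most abundant circRNA the sums were 2.44 for Tnn and 2.02 for Col12a1, and the dominant circRNA therefore sets much of the Tnn value. The 10 single ratios stayed within their counting intervals under the 3 scalings tried on them. Each scaling moved every ratio by a common factor smaller than these intervals, so this outcome was fixed in advance. The 9 members past 2-fold were 9 under each scaling, 8 at 4-fold and 8 with the FDR of the authors' deposited table under 0.05, Col12a1 circRNA 2 losing its call in both. In the whole table the 767 calls became 370 at 4-fold and 1549 by fold alone, which is stricter and looser by construction. The split of 382 higher and 385 lower became 327 and 462 on listed totals and 421 and 365 on DESeq2 size factors. Counting ends within 5 nt as shared, chosen after seeing the data, gave 1852 in place of 1839 circRNAs. With 2 counts in control, Tnn circRNA 5 and Col12a1 circRNA 5 have ratios known only within a wide range.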
